A study of Mus musculus with 3 samples.

Results

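Hypoxia and glycolysis response genes were followed in mouse spleens that carried islet grafts. The set held 10 genes: Vegfa, Adm, Slc2a1, Hk2, Pfkfb3, Pgk1, Ldha, Egln3, Bnip3 and Car9. They were chosen by name, and every probe that the array assigns to one of these names was taken. This gave 17 probes of 55681 on the array and 10 of its 34797 gene names. Of the 17 probes, 16 were detected, and all 10 genes had at least 1 detected probe.

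In cells that lack oxygen, the prolyl hydroxylases that mark the alpha subunits of hypoxia-inducible factor (HIF) for destruction slow down. The stabilised subunit then pairs with Arnt and binds short DNA elements near genes for glucose uptake, glycolysis, vessel growth and pH control. Freshly isolated islets have lost their blood vessels and depend on diffusion until new vessels grow, and the spleen itself is a blood-rich organ in which red cells are cleared and lymphocytes are housed. Activated lymphocytes and phagocytes also use several of these genes without any lack of oxygen.

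All RNA came from spleens of male recipients of the strain labelled C57BL/6J that had been made diabetic with streptozotocin, and islets came from mice of the same strain. Sample 1 was taken on day 0, directly after 25 islets had been placed in the spleen and 100 under the kidney capsule. Sample 2 was taken on day 2. Sample 3 was taken on day 139, from recipients whose kidney with the islets under its capsule had been taken out on day 100. The treatment protocol gives both grafts for all 3 samples, while the characteristics mention the capsular graft for Sample 3 only. The mice were young adults at the start. Each condition was measured on 1 array, and how many spleens went into each RNA is not stated, so differences between mice cannot be seen. All 3 samples carried islets, and no array held spleen from a mouse without islets or without diabetes, so day 0 is the reference. Recipients were hyperglycemic when the islets were placed, and the paper reports that recipients of both grafts became normoglycemic. Blood glucose, age and time since surgery thus cannot be told apart from day. Removal of the kidney with its graft, in Sample 3 only, cannot be told apart from day 139 either.

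The HIF element has the core ACGTG or GCGTG, and its presence was read in promoter sequence because it is the feature for which most of these genes are known. All 10 genes matched the RefSeq promoter table (build GRCm38.p6, from 250 bases before to 50 bases after the start site), with 13 promoters in all. At least 1 core stood on either strand in 12 of the 13 member promoters and in at least 1 promoter of each of the 10 genes, against 43.8% of the 32851 promoters in the table. ACGTG was found in 10 member promoters, of 9 genes, against 19.6% of all promoters. GCGTG was found in 7, of 6 genes, against 32.4% of all. The member promoters had a median GC content of 62.0%, and all promoters 52.7%. A core with a CG step occurs more often in GC-rich sequence, and a match describes letters only, not a bound site. CACGTG, which reads as ACGTG on both strands and so overlaps itself, stood in 3 member promoters against 7.15% of all.

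The 4 promoters shown are those of both genes that were past the ratio limit on day 2, of Ldha as a gene that was low on day 139, and of Bnip3 as a gene that was high on day 139. They are printed 5′ to 3′ along the gene's own strand in lower case, and capitals mark the cores, where CACGT and CACGC are the cores read on the opposite strand.
Slc2a1 (chr4:119108495-119108794, + strand): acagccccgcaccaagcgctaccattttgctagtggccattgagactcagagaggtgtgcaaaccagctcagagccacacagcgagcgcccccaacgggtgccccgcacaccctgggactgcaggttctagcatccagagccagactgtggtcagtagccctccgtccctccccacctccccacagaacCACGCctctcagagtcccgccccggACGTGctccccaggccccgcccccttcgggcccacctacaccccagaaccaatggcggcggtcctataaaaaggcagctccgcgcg
Hk2 (chr6:82774405-82774704, - strand): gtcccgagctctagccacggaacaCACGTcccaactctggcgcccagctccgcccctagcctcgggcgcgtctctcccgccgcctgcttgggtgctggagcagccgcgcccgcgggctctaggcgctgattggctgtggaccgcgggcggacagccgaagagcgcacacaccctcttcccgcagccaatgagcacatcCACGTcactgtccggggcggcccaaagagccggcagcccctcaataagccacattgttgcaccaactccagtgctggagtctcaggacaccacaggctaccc
Ldha (chr7:46845554-46845853, + strand): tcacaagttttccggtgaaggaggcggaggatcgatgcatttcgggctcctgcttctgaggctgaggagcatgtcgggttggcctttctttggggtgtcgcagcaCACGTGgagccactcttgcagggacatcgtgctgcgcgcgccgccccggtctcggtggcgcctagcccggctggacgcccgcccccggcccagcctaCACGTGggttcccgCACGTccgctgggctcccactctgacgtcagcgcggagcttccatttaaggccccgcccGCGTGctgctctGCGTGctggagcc
Bnip3 (chr7:138909457-138909756, - strand): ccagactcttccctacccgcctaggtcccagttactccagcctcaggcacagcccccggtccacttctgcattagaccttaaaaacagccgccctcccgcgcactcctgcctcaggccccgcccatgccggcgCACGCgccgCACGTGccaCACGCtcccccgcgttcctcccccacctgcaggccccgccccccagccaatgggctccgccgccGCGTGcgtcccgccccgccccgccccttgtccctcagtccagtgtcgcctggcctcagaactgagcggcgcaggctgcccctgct
The Slc2a1 promoter held 2 cores, which began 61 and 36 bases before the start site. Ldha held 7, 5 of them ACGTG, in the upstream one of its promoters. Bnip3 held 5 and Hk2 held 2. The Ldha and Bnip3 promoters shown held the most cores of the 13, so the 4 shown do not represent the set. On day 139 over day 0, Adm, Car9 and Egln3 were higher than Bnip3, and Vegfa was lower than Ldha. The Adm promoter held 2 cores, both GCGTG, and those of Car9 and Egln3 held 1 each. The upstream Vegfa promoter of the table, at chr17:46032328-46032627, was the only one of the 13 without a core. Vegfa is thus counted among the genes with a core by its downstream promoter alone.

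Signals are normalized intensities, on a linear scale without a physical unit, and are comparable between samples for the same probe but not between probes. Of all probes, 54.4%, 53.8% and 50.4% were well above background in Samples 1, 2 and 3. Of 8 markers listed for spleen, 7 were on the array (Tlx1, Nkx2-5, Spic, Cd79a, Cd3e, Hba-a1 and Stab2), and Ccl21a was not. Those 7 were well above background in every sample. Spic, Cd79a, Cd3e, Hba-a1 and Stab2 also stand in the lists of cell type markers used below, so they are not specific to spleen as an organ. Log2 ratios are given with the error that the scanner software assigns to the signals, which was about 0.20 for most members and covers the reading of a spot, not labelling or mice. A gene is called past the ratio limit at a ratio of at least 1.5 or at most 0.66. The stricter criterion also asks for a Z-score of at least 2 or at most -2, where the log2 ratio is divided by the SD of the 1000 probes nearest in signal. With 1 array per condition no p-value was computed, and every difference below is one between these arrays. In a whole spleen, fewer cells of a type and less RNA per cell cannot be told apart.

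On day 2, 8 of the 10 genes read lower than on day 0, some of them within the scanner error. The median log2 ratio of the 10 members was -0.19 in Sample 2 over Sample 1, with 8 below 0 and 2 above. The median of all 22851 detected genes was 0.02, with 52.8% of them above 0. Adm, Pgk1 and Egln3, below 0, and Ldha, above it, lay within the scanner error. Slc2a1 and Hk2 were past the ratio limit downward, which is 2 of 10 members against 9.87% of all genes. Upward, 0 members were past the limit, against 9.94% of all genes. Slc2a1 alone also met the Z-score criterion downward, against 2.86% of all genes, and 0 members met it upward, against 2.18%.

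On day 139 the members lay on both sides of 0. Over Sample 1 the median log2 ratio of the members was 0.0, equal to that of all genes, with 5 members above 0 and 5 below, and 49.6% of all genes above 0. The members above were Adm, Car9, Egln3, Bnip3 and Pfkfb3, and those below were Vegfa, Ldha, Slc2a1, Hk2 and Pgk1; Pfkfb3 and Pgk1 lay within the scanner error. By their brightest probes 0 members were past the ratio limit upward and 0 downward, while 13.6% and 13.7% of all genes were. The Z-score criterion was met by 0 members in either direction, against 3.04% of all genes upward and 2.45% downward.

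In Sample 3 over Sample 2 the median of the members was 0.32, with 7 above 0 and 3 below. The median of all genes was -0.03, with 47.5% of them above 0. Adm was past the ratio limit upward, 1 of 10 members against 12.8% of all genes, and 0 were past it downward, against 13.5%. The Z-score criterion was met by 0 members upward and 0 downward, against 2.84% and 1.96% of all genes. This comparison shares Sample 2 with the first and Sample 3 with the second, so the 3 sets of ratios are not independent. Sample 2 held the lowest of the 3 signals in 6 members and the highest in 1.

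The scale of Sample 3 depends on the assumption that all samples hold the same distribution of signals. Its spike-in controls, RNA added in equal amount to each labelling, had a median log2 signal of 10.89 before normalization, against 11.50 and 11.56 in Samples 1 and 2. Scaling to them raised the median of all genes by 0.38 in Sample 3 over Sample 1 and by 0.44 over Sample 2. On that scale 4 and 7 members were past the ratio limit upward. The share of all genes past it on that scale was not computed, so these counts do not describe the members apart from the array. The members' medians less that of all genes were 0.01 and 0.36. The counts for Sample 3 are therefore relative to the other genes of the array.

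**Figure D1:**
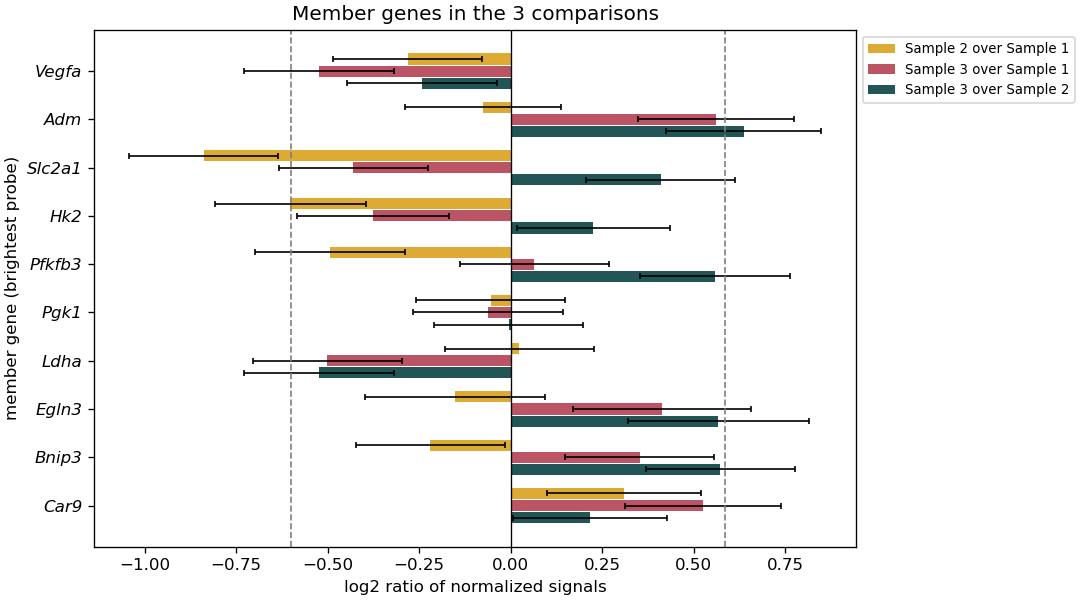
Log2 ratios (horizontal axis) of the 10 member genes, each by its brightest probe, for Sample 2 over Sample 1, Sample 3 over Sample 1 and Sample 3 over Sample 2. Bars start at 0, whiskers are the scanner software's error on the ratio, and dashed lines mark ratios of 1.5 and 0.66; only Slc2a1 and Hk2 (day 2 over day 0) and Adm (day 139 over day 2) lie past a line.

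The ratios plotted for the 10 genes differed in size: the widest range over the 3 samples was 0.84 on the log2 scale, for Slc2a1, and the narrowest was 0.06, for Pgk1. The other 8 members spanned between 0.52 and 0.64. All genes of the array had a median absolute log2 ratio of 0.25, 0.31 and 0.32 in the 3 comparisons.

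The secreted factors come first. Vegfa, the growth factor that drives vessel sprouting, had signals of 688, 566 and 479 in Samples 1, 2 and 3 by its brightest probe (chr17:46154387-46154446, array annotation on mm9). Day 0 was highest and day 139 lowest. The log2 ratio was -0.28 ± 0.20 on day 2 and -0.52 ± 0.21 on day 139, both over day 0, so each exceeded the scanner error while neighbouring samples in the order differed by little more than it. A second Vegfa probe (chr17:46162376-46162435), placed nearer the start of the gene, read 372, 390 and 230. It put Sample 3 past the ratio limit, with log2 values of -0.69 against day 0 and -0.76 against day 2, and its day 2 signal was not lower than that of day 0. Both probes placed Sample 3 lowest. On the spike-in scale the brightest probe of Vegfa changed sign in Sample 3 over Sample 2, from -0.24 to 0.22.

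Adm encodes adrenomedullin, a peptide that widens vessels and tightens the endothelial barrier. It read 105, 99.3 and 154, with the first 2 samples less than the scanner error apart and day 139 highest. On the log2 scale day 139 was higher by 0.56 ± 0.21 than day 0 and by 0.64 ± 0.21 than day 2, and the latter had a Z-score of 1.02. With the normexp background correction the ratio over Sample 2 became 0.42 and was no longer past the limit.

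The receptors and relatives of both factors were measured as well. Among 28 detected genes of a list of paralogs and partners of the members, Figf, a lymphatic and vascular growth factor of the same family as Vegfa, read 110, 325 and 285. It was higher in both later samples, with log2 ratios of 1.56 and 1.38 over day 0, and met both criteria. Ramp3, which pairs with the receptor Calcrl to form an adrenomedullin receptor, read 1307, 509 and 600 and was lower on day 2 by both criteria (-1.36). Calcrl itself read 43.7, 36.8 and 26.8, and the VEGF receptor Flt1 read 2111, 1541 and 1350, each lowest on day 139. Ramp1 was highest on day 139, at 337, 463 and 733. Over the list, 4 genes were past the ratio limit upward and 2 downward on day 2, and 4 upward and 8 downward on day 139 over day 0, with medians of 0.0 and -0.11.

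Among the members, Slc2a1 and Hk2 had the log2 ratios farthest from 0 on day 2 over day 0, both downward. Slc2a1, which encodes the glucose transporter GLUT1, a main basal glucose transporter of endothelium and activated lymphocytes, read 979, 547 and 727 (chr4:118809864-118809923, mm9). Day 0 was highest, day 2 lowest and day 139 between them, and each step exceeded the scanner error. The log2 ratio on day 2 was -0.84 ± 0.20, a ratio of 0.559, with a Z-score of -2.07. On day 139 it was -0.43 ± 0.20 over day 0 and 0.41 ± 0.20 over day 2. The Z-score lay near its limit, and the call was lost with the normexp correction, where the ratio was -0.77 on the log2 scale, and with 1 SD over all detected probes.

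Hk2, the inducible hexokinase that traps glucose in the cell, followed the same order at 227, 150 and 175. Its log2 ratio on day 2 was -0.60 ± 0.21, a ratio of 0.659 and thus barely past the limit of 0.66, and its Z-score was -1.13. On day 139 the ratio was -0.38 over day 0. Samples 2 and 3 differed by 0.22 ± 0.21. The normexp correction gave -0.48 on day 2, short of the limit.

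Pfkfb3 makes fructose 2,6-bisphosphate, the activator of phosphofructokinase, and is the isoform most tied to low oxygen. Its brightest probe read 1770, 1257 and 1850, again lowest on day 2, with day 0 and day 139 within the scanner error of each other. The log2 ratio was -0.49 ± 0.20 in Sample 2 over Sample 1 and 0.56 ± 0.20 in Sample 3 over Sample 2. A dim second probe, whose genomic placement spans 1414 bases and so crosses an intron, read 53.1, 45.6 and 42.0. It placed day 139 lowest, in contrast to the first. Pfkfb4, a relative with the same activity, read 1406, 839 and 918, lower by -0.75 on day 2 and -0.62 on day 139.

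Of the 98 detected genes in the pathway lists, Pfkfb4 also had the profile nearest to that of Slc2a1, with a root mean square distance of 0.116 between log2 profiles centred on their means. Bhlhe40, a transcriptional repressor, followed at 0.128 with signals of 475, 302 and 323. Fh1, the fumarate hydratase of the citrate cycle, came next at 0.130 with 3041, 1856 and 2811. These distances rest on 3 samples only.

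Pgk1, phosphoglycerate kinase, read 8215, 7906 and 7872 and showed no difference beyond the scanner error in any comparison, the largest log2 ratio being -0.06 ± 0.20. Its only probe is placed by the array annotation on chromosome 3 (chr3:57906830-57906894, mm9), whereas RefSeq has the gene on chromosome X, so the probe may share signal with a copy elsewhere. Its value as a measure of Pgk1 is uncertain.

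Ldha, the lactate dehydrogenase subunit that turns pyruvate to lactate, read 40720, 41380 and 28780 by its brightest probe. Days 0 and 2 were alike, and day 139 was lower by log2 ratios of -0.50 ± 0.20 and -0.52 ± 0.20. The probe nearest the start of the transcript read 1691, 1783 and 1012, and its ratios of -0.74 and -0.82 were past the limit. The remaining probe read 3999, 3628 and 2760. On the spike-in scale the brightest probe gave -0.08 in Sample 3 over Sample 1 and -0.01 over Sample 2. Less the median of all genes on that scale, these were -0.46 and -0.42. Without spike-in scaling, all 3 Ldha probes placed Sample 3 lowest. Ldhb, the heart-type subunit that favours the reverse reaction, was instead highest on day 139, at 269, 361 and 547, with a log2 ratio of 1.03 in Sample 3 over Sample 1, past the ratio limit but with a Z-score of 1.57. Slc16a3, which exports lactate, read 2698, 2195 and 1163 and met both criteria downward on day 139 (-1.21).

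**Figure D2:**
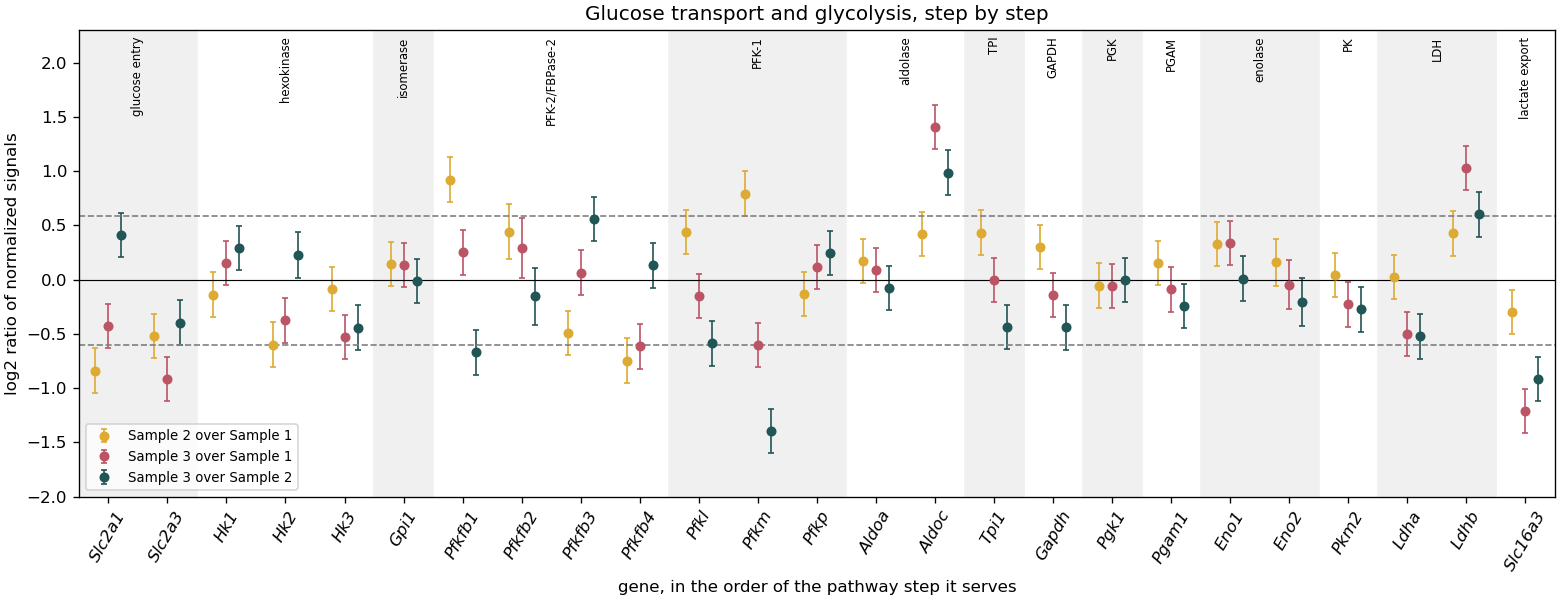
Log2 ratios (vertical axis) of genes for glucose entry, glycolysis and lactate export, ordered along the horizontal axis by pathway step, for the 3 comparisons; points are single ratios of 1 array over another with the scanner software's error, and dashed lines mark ratios of 1.5 and 0.66. Slc2a1, Slc2a3, Hk2, Pfkfb3 and Pfkfb4 lie below 0 on day 2, while Tpi1, Gapdh, Eno1 and Pfkm lie above it.

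The plot of pathway steps sets the members beside the enzymes that are not members. Of 15 other glycolysis enzymes, all detected, 12 lay above 0 and 3 below in Sample 2 over Sample 1, with a median of 0.17. On day 139 their median was 0.0 over day 0 and -0.21 over day 2. Of the 15, 1 was past the ratio limit upward and 0 downward on day 2, and 2 upward and 1 downward on day 139 over day 0. Pfkm, the muscle-type phosphofructokinase subunit, read 1728, 2992 and 1136 and met both criteria upward on day 2 (0.79) and downward from there to day 139 (-1.40). Aldoc, an aldolase found mainly in brain, read 264, 353 and 699 and met both criteria on day 139 over day 0 (1.40). Hk1, the constitutive hexokinase, read 91150, 82830 and 101400, the lowest ratio of the list on day 2 at -0.14. Gapdh read 70150, 86520 and 63720 and was not past the limit in any comparison.

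Egln3 encodes PHD3, a prolyl hydroxylase that is itself a HIF target and so feeds back on the pathway. The gene was dim, at 44.0, 39.6 and 58.7, and day 139 was highest. The log2 ratio was -0.15 ± 0.25 on day 2, within the scanner error, and 0.41 ± 0.24 and 0.57 ± 0.25 on day 139 over days 0 and 2. The second, still dimmer probe read 24.1, 19.4 and 35.5 in the same order and was past the ratio limit in Sample 3 over Sample 2, at 0.87 ± 0.34. With the normexp correction the brighter probe gave 0.20 on day 139 over day 0, within the scanner error, and 0.30 over day 2.

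The factors upstream were not uniform. Of 10 oxygen-sensing genes, 9 were detected and Arnt2 was not well above background on any array. Hif1a, the inducible alpha subunit, read 697, 449 and 456, a log2 ratio of -0.63 on day 2 and -0.61 on day 139, past the ratio limit but with Z-scores of -1.36 and -1.03. Epas1, the HIF-2 alpha subunit of endothelium and macrophages, read 9484, 7146 and 6236 and was past the limit on day 139 (-0.60). Hif3a, whose short forms restrain the other alpha subunits, read 316, 307 and 71.2, and met both criteria downward in Sample 3, at -2.15 over Sample 1 and -2.11 over Sample 2. Cited2, which competes with HIF for its coactivators, read 1051, 1377 and 1296, and Vhl, the ubiquitin ligase subunit that takes HIF down, read 1190, 1096 and 1455. Neither was past the limit in any comparison, nor were Arnt, Egln1, Egln2 and Hif1an. The list had medians of -0.09, -0.01 and -0.03 in the 3 comparisons, with 1, 3 and 1 genes past the ratio limit downward and 0 upward. HIF activity is set mainly by protein stability, which these arrays do not measure.

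Bnip3 and Car9 close the set. Bnip3, a mitochondrial protein that directs mitochondria to autophagy, read 896, 769 and 1143 by its brightest probe and 632, 488 and 718 by the next. Both placed day 2 lowest and day 139 highest, with log2 ratios of 0.57 ± 0.20 and 0.56 in Sample 3 over Sample 2, just short of the limit. The remaining Bnip3 probe was not well above background on any array. Its relative Bnip3l, which clears mitochondria from maturing red cells, read 8715, 8681 and 9378 and differed by less than the scanner error throughout.

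Car9, a carbonic anhydrase at the cell surface that handles acid and is scarce in most normal tissue, read 116, 144 and 167. It was the only member with its lowest signal on day 0. The log2 ratio was 0.31 ± 0.21 on day 2 and 0.52 ± 0.21 on day 139, with 0.22 ± 0.21 between the later samples, so the step between Samples 2 and 3 barely exceeded the error. Of the other carbonic anhydrases, Car3 and Car4 differed far more, and they were chosen for that. Car1, Car12 and Car13 were not past the ratio limit in any comparison, Car2 was past it downward on day 139 over day 0 (-0.61), and Car14 was past it downward on day 139 over day 2 (-0.81). Car4, a membrane-anchored form, read 4708, 4828 and 25020, a log2 ratio of 2.41 in Sample 3 over Sample 1. Car3, a form of muscle and fat, read 28.7, 28.5 and 202, a ratio of 2.81. Each was past both criteria over either earlier sample.

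**Figure D3:**
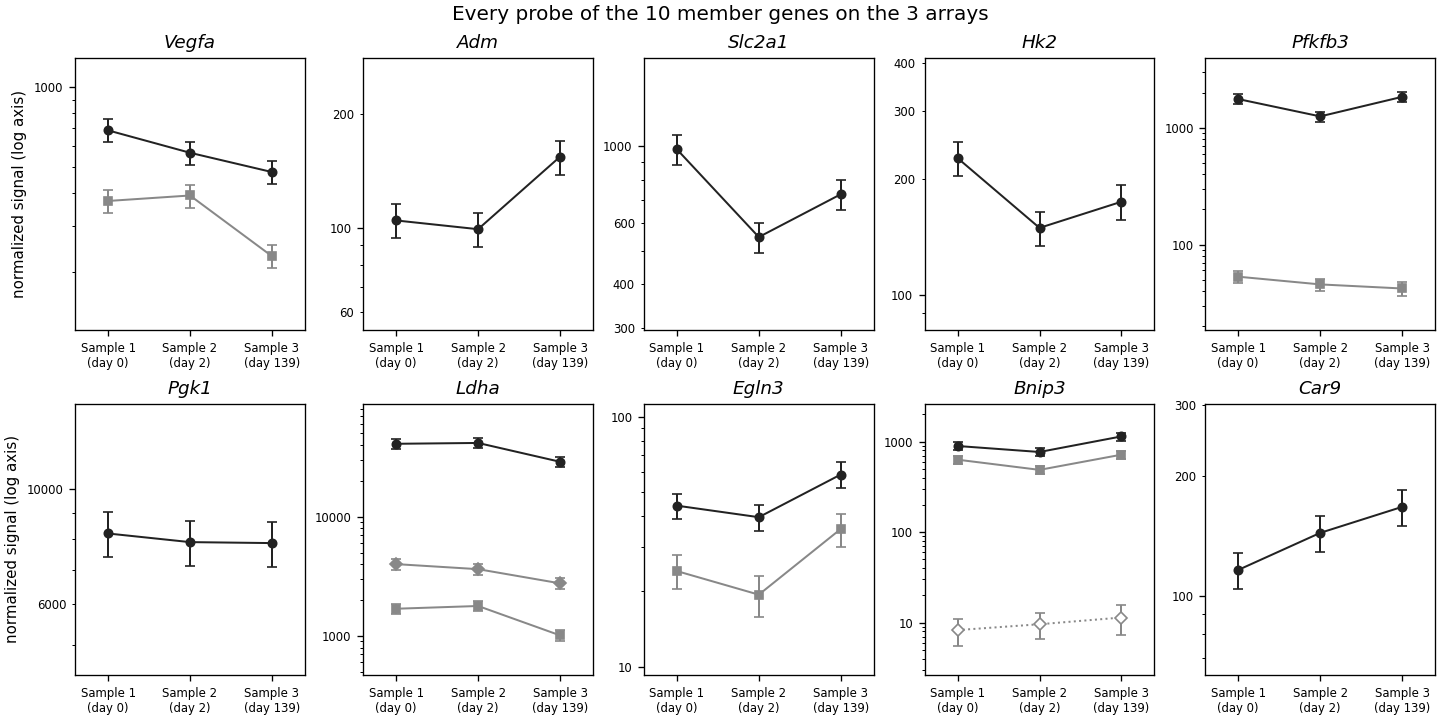
Normalized signal (log axis, a separate range in each panel) of every probe of the 10 member genes in Samples 1 to 3; whiskers are the scanner software's error, the black line is the probe used for the gene, grey lines are its other probes, lines join the 3 values of 1 probe, and the open dotted series was not well above background. The probes of Ldha, Egln3 and Bnip3 keep their order relative to Sample 3, while the dim Pfkfb3 probe does not share the high day 139 signal of the other.

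The panels of probe signals show how far probes of a gene differed. Of the 10 members, 5 had more than 1 detected probe. The log2 ratios of a gene's probes lay between 0.01 apart (Bnip3) and 0.67 apart (Pfkfb3), both in Sample 3 over Sample 2. With the median over the detected probes in place of the brightest, 1 member was past the ratio limit downward in Sample 3 over Sample 1 and 2 were past it upward in Sample 3 over Sample 2.

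Other known hypoxia targets set the members in context. Of 28 listed, 26 were detected, and Epo and Mxi1 were not well above background on any array. On day 2 their median log2 ratio was 0.0, with 5 past the ratio limit downward and 0 upward, and 2 met both criteria downward. On day 139 over day 0 the median was -0.52, with 12 past the limit downward and 2 upward, and 5 met both criteria downward and 0 upward. Over day 2 the median was -0.40, with 7 past the limit downward and 4 upward. These genes were listed with results of the same arrays known, so the counts describe the list.

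Hmox1, the haem oxygenase of red pulp macrophages, read 35150, 11010 and 16620, a log2 ratio of -1.67 on day 2. Hmox1 was lowest on day 2, as were Slc2a1 and Hk2.

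A further group was not past the ratio limit between days 0 and 2 and was low on day 139. Angptl4 and Ddit4 were level between days 0 and 2, and Plin2 was higher by 0.36 ± 0.20 on day 2. Angptl4, an inhibitor of lipoprotein lipase, read 8349, 7547 and 1709, a log2 ratio of -2.29 over day 0. Plin2, which coats lipid droplets, read 6116, 7835 and 2243 (-1.45), and Ddit4, an inhibitor of mTORC1, read 23090, 24850 and 9235 (-1.32). These 3 genes were past both criteria over either earlier sample. Ankrd37 ran the other way, at 172, 95.6 and 383, with a log2 ratio of 2.00 in Sample 3 over Sample 2. Narf, the highest ratio of the list on day 2, read 259, 347 and 258 and was not past the limit. The widest ratio of a member, -0.84 for Slc2a1, was smaller than that of each hypoxia target named here as past both criteria.

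**Figure D4:**
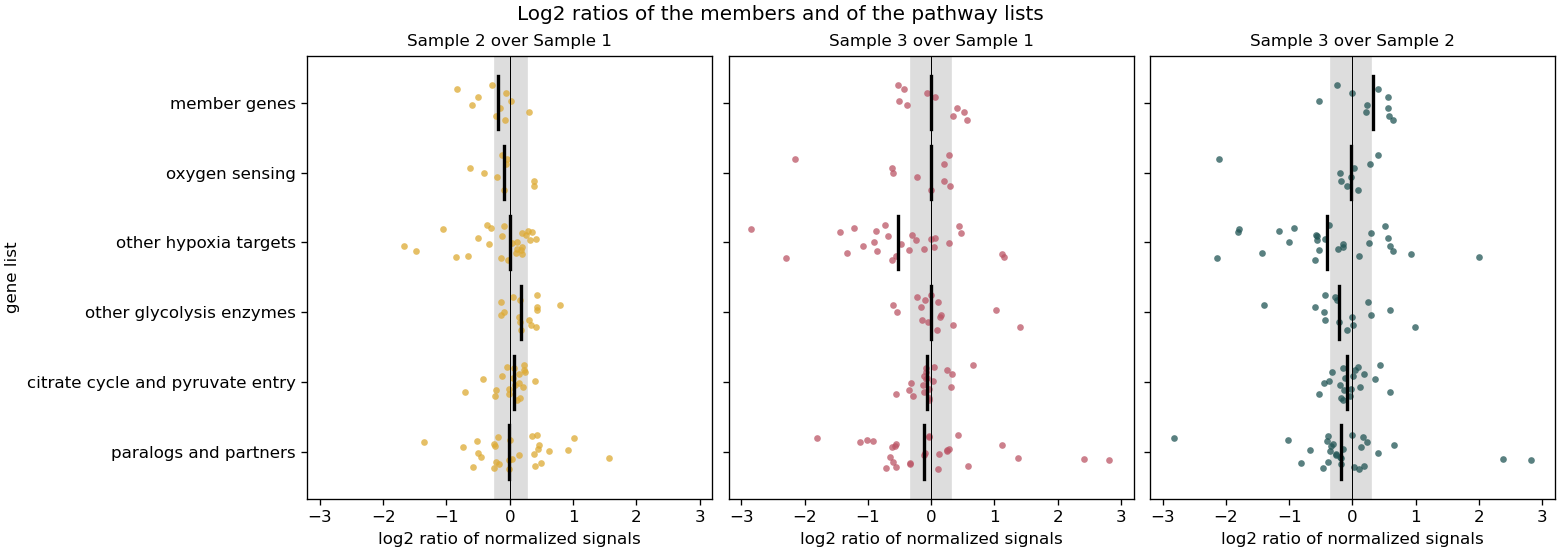
Log2 ratios (horizontal axis) of the member genes and of 5 pathway lists in each comparison; each point is a gene, black bars are list medians and the grey band holds the middle 50% of all detected genes. The members' median is -0.19, 0.0 and 0.32 in the 3 panels, and that of the other hypoxia targets is 0.0, -0.52 and -0.40 (0.06 in the last on the spike-in scale).

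The plot of the lists shows the members and the other hypoxia targets on opposite sides of 0 in Sample 3 over Sample 2, a difference that was not tested. On the spike-in scale both medians were above 0 there, at 0.77 and 0.06. The median of the other hypoxia targets on day 139 over day 0 was -0.27 with the normexp correction and -0.12 on the spike-in scale. Slc2a3, the glucose transporter of leukocytes, read 1847, 1289 and 980, and Slc2a4, the insulin-responsive transporter of muscle and fat, read 1383, 1380 and 682. Slc2a5, a fructose transporter, read 38.9 and 78.7 and was not well above background in Sample 3, at least 4.32-fold lower than in Sample 2.

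Markers of several cell types also differed in the same comparisons. Of 10 neutrophil markers, 4 (S100a8, S100a9, Cxcr2 and Mmp8) met both criteria downward on day 2 and on day 139 over day 0, and the summed signal of the list was 216800, 78120 and 90740. The granule genes Mpo, Elane, Ngp, Camp and Ltf of the same list were all lowest in Sample 1, and Camp was past the ratio limit upward on day 139 over day 0 (0.72). Sample 1, in which those 4 markers were highest, is also the sample in which Slc2a1, Hk2 and Vegfa were highest. Of 8 endothelial markers, 2 were past the limit downward and 1 upward on day 2, with summed signals of 10940, 11450 and 9256, and Emcn was not well above background in Sample 2. Of 9 macrophage and monocyte markers on the array, 2 were past the limit downward and 1 upward on day 2. Their summed signal was 108800, 98210 and 92070. Spic, the factor of red pulp macrophages, read 13170, 4011 and 9906, in the same order as Slc2a1, Hk2 and Hmox1. The part of these cells in the members' values was not tested.

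Sample 2 had the highest islet signal. All 10 detected islet endocrine markers lay above 0 on day 2 over day 0, 8 of them past both criteria, with summed signals of 63620, 107800 and 33210, and Pdx1 was not well above background. Of 9 fibroblast and mesothelium markers, 6 met both criteria upward on day 2, and their summed signal was 17000, 79930 and 28290. The 6 members that were lowest on day 2 were thus lowest in the sample with the highest islet and collagen signal, and the part of those cells in the values was not tested.

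In Sample 3, lymphocyte markers were high. All 8 B cell markers lay above 0 over day 0, 6 past the ratio limit and 4 past both criteria, with summed signals of 47160, 46770 and 87980. All 8 T cell markers were past the ratio limit and 0 past both criteria, with summed signals of 12340, 16590 and 22840. Of 9 erythroid markers on the array, 4 were past the limit downward on day 139, and their summed signals were 859300, 901700 and 835600. The lymphocyte markers were highest in the same sample as Adm, Egln3, Bnip3, Car9 and Pfkfb3, and their part in these values was not tested.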

How the data were processed

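RNA from 3 spleens or pools of spleens was hybridized to 1-colour arrays (Cy3), 1 array per condition, all on 1 slide, so slide cannot differ between conditions. For each array the authors deposited a scanner file with linear intensity values per spot. Per the file headers, Feature Extraction 10.7.1.1 had subtracted background and corrected spatial trends; the submitters' processing notes name version 9.5.1.1. The authors also deposited a table of quantile-normalized intensity values, used as an alternative; for the detected member probes it differed from the values here by at most 0.0016 on the log2 scale.

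Controls and spots flagged as outliers were dropped, spots of a probe averaged, and 55679 probes quantile normalized over the arrays, floored at 1 and log2-transformed. Detected probes were those well above background on at least 1 array (32108 probes, 22851 gene names). A gene took its brightest detected probe. A bound is given against the higher of the probe's own signal and the lowest signal well above background on that array (12.9, 14.0 and 18.2 in Samples 1 to 3). The methods name a ratio and a Z-score but give no formula; the one used here is described with the results. The calls were tested on simulated data only for recovery of changes larger than that of any member. Calls among unchanged probes were not counted, so the simulation does not bear on calls near the limits. The number of arrays limits the precision.

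The members and the lists were chosen with earlier results of these data known. Named are every member and, of each pathway list, every gene past both criteria and those with the highest and lowest ratio among genes well above background on both arrays. One gene that this rule names is not reported here, though it stays in the counts of its list. Other named genes were chosen after their values were seen. Gene names are those of the array. Promoters came from RefSeq (GRCm38.p6), whose table held all 10 members; coordinates of probes are those of the array annotation on mm9. Alternatives were a normexp correction (offset 50, limma 3.58.1, R 4.3.3), 75th percentile or spike-in scaling, the authors' values, a higher floor (the dimmest signal well above background), detection required on all 3 arrays or not at all, keeping outlier spots, the median over a gene's probes, and, for the Z-score, 1 SD over all detected probes, a scaled median absolute deviation or ratio limits of 2 and 0.5. Other calculations used Python 3.11.15, numpy 2.4.6 and pandas 2.3.3. The labels and the methods name different RNA purification kits.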

Additional observations from a re-analysis of the deposited data

How the results depend on the processing

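Of 240 values of single members under the alternatives other than spike-in scaling, 236 moved by less than the scanner error and 4 by more, and 4 changed sign. The authors' values, the higher floor, both detection rules and the kept outlier spots each left 30 of 30 values unmoved. The first used the same normalization, and every member was well above background in every sample, so these could hardly move a value. The 4 that moved came from the normexp correction and the median over a gene's probes. Under spike-in scaling, 20 of 30 moved by more than the scanner error and 5 changed sign. On day 2 over day 0, the members past the ratio limit downward went from 2 to 1 with the normexp correction and to 0 at ratio limits of 2 and 0.5, and the members past both criteria went from 1 to 0 under each of these and with 1 SD over all detected probes. On day 139 over day 0, spike-in scaling put 4 members past the limit upward. The members' median log2 ratio was then 0.39 and that of all genes 0.38. The share of all genes past the limit on the spike-in scale was not computed. The median over a gene's probes put 1 member past the limit downward. On day 139 over day 2, the count upward was 7 with spike-in scaling (median 0.77, all genes 0.42). It was 2 with the median over probes, and 0 with the normexp correction or the limits of 2 and 0.5. The cause was not tested. No member that was past the ratio limit changed sign under any alternative run. No paired analysis was possible because each condition has 1 array. Dim members (Egln3 and the second Pfkfb3 probe) have larger scanner errors, and a difference between mice of the size seen here could not be told from one between conditions.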

Other observations

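The citrate cycle, which takes pyruvate onward where oxygen is at hand, varied less than the list of other hypoxia targets. Over the 3 comparisons its log2 ratios lay between -0.71 and 0.66, and those of the other hypoxia targets between -2.84 and 2.0. All 20 listed genes of the cycle and of pyruvate entry were detected. Their median log2 ratios were 0.07, -0.07 and -0.08 in Sample 2 over Sample 1, Sample 3 over Sample 1 and Sample 3 over Sample 2. In no comparison did any of them meet the ratio and Z-score criteria. Between 1.96% and 3.04% of all genes met them per direction and comparison, so a count of 0 among 20 is near the share of the array. No replicated test was possible. Fh1, fumarate hydratase, was past the ratio limit on day 2 (-0.71), with signals of 3041, 1856 and 2811, and Suclg2, a subunit of succinate-CoA ligase, on day 139 over day 0 (0.66), with 137, 161 and 217. The pyruvate dehydrogenase subunit Pdha1 read 713, 529 and 677 and was not past the limit. Dlst, a subunit of the oxoglutarate dehydrogenase complex, had the lowest ratio on day 139 over day 0 (-0.55), with 3825, 3796 and 2619. Pcx, pyruvate carboxylase, had the highest on day 2 (0.40), with 538, 712 and 551. Citrate synthase, Cs, read 12430, 13860 and 12170. Pdk1, the kinase that shuts pyruvate dehydrogenase off and a HIF target, read 312, 355 and 434, also not past the limit.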
